A study of Mus musculus with 17 samples.

Results

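Messenger RNA from whole mouse kidneys was examined for 10 markers of tubular injury and repair: Havcr1, Lcn2, Spp1, Clu, Vcam1, Sox9, Cd44, Vim, Krt18 and Cdkn1a. The genes were chosen by symbol, each had 1 entry among the 22561 genes of the deposited table. The Ctrl group held 5 male wild-type mice of the C57BL/6 strain that were given saline. The Case group held 6 male db/db mice (BKS.Cg-Dock7m +/+ Leprdb/J), which lack a working leptin receptor and become obese and diabetic, and these were given saline too. The Dapa group held 6 male mice of the same db/db stock that received 1 mg/kg/day of dapagliflozin by gavage, a drug that blocks SGLT2, the main glucose transporter of the proximal tubule. Treatment began at 8 weeks of age and lasted 6 weeks in all groups, and each library was 1 mouse. The wild-type mice were of another inbred strain than the db/db mice, so the leptin receptor defect and the strain background cannot be told apart in either comparison with Ctrl. A whole kidney holds many cell types, and in such samples more cells of a type and more RNA per cell cannot be told apart.

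These markers are read in kidney pathology as a staged response of the tubule. An injured proximal tubule cell sheds or secretes proteins such as KIM-1 (the product of Havcr1), NGAL (Lcn2), osteopontin (Spp1) and clusterin (Clu). It then loses features of its mature state, switches on Sox9, Vim, Krt18 and the adhesion molecules Vcam1 and Cd44, and may divide to replace lost neighbours. Cdkn1a encodes p21, which halts the cell cycle and accompanies a repair that stalls. Several of these genes are active in uninjured cells as well: Spp1, Krt18 and Clu in the distal nephron and collecting duct, Vim and Cd44 in stromal, endothelial and immune cells, and Lcn2 and Cd44 in neutrophils.

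Of the 10 markers, 4 were higher in Case than in Ctrl (Lcn2, Spp1, Clu and Krt18) and none was lower. In Dapa, 6 were higher than in Ctrl (Lcn2, Spp1, Clu, Krt18, Vim and Cdkn1a) and none was lower. Between Dapa and Case no marker passed the test in either direction. Havcr1, Vcam1, Sox9 and Cd44 passed in no comparison. A gene passed when its q, the edgeR p adjusted over all genes tested, was under 0.05. For scale, 13% of the 14582 genes tested in Case against Ctrl passed in either direction and 6.09% passed as higher in Case. In Dapa against Ctrl 29.1% of 14647 genes passed and 14.2% were higher in Dapa, while in Dapa against Case 0% of 14573 genes passed. Relative to Ctrl, the median log2 fold change of the markers was 0.82 in Case and 0.97 in Dapa, beside 0.03 and 0.02 over all genes tested, and between Dapa and Case it was -0.23 beside -0.01. Of the called markers, 3 in Case (Lcn2, Spp1 and Clu) and 5 in Dapa (all but Vim) also had a mean FPKM more than 2-fold that of Ctrl, and 2.33% and 5.05% of all genes met both conditions. Between Dapa and Case that share was 0%. All 10 markers passed the filter on low counts in each comparison. The 3 comparisons share groups, so they are not independent of each other.

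Each library held 13039535 to 17779635 counts, and the share on mitochondrial genes was 17.9% to 20.4% in Ctrl, 19.8% to 27.3% in Case and 19.7% to 27.6% in Dapa. Its part in the marker differences was not tested. In 7 libraries (Ctrl 1, 3 and 4, Case 1, and Dapa 10, 11 and 12) the library totals implied by a few broken entries of the table differed by factors of 0.97 to 1.38 from the totals used for all other genes. Nothing in the labels explains that difference. Results in the 10 other libraries are therefore also given for the called markers and for values that changed sign. Within those 10 (2 Ctrl, 5 Case and 3 Dapa mice), 1 marker passed in Case (Clu) and none in Dapa against Ctrl. A term for the 7 libraries in the fit left the counts at 4 and 6. The share of all genes passing in those fits was not computed, so a change in counts cannot be read as particular to the markers. In the 10 libraries alone the log2 fold changes in Case against Ctrl were 5.62 for Lcn2, 2.20 for Spp1 and 0.99 for Krt18 (q from 0.0592 to 0.191). Those in Dapa against Ctrl were 5.19 for Lcn2, 1.90 for Spp1, 1.85 for Clu, 1.097 for Krt18, 1.00 for Cdkn1a and 0.405 for Vim (q from 0.0584 to 0.428). The kidneys carried the labelled tissue's defining genes: the summed FPKM of 26 proximal tubule genes was 15290 to 23105 in Ctrl, 6122 to 9422 in Case and 5193 to 11383 in Dapa. The androgen-regulated gene Kap carried much of that sum, and without it, a sum added after the data were seen, the ranges were 7588 to 8520 in Ctrl, 4244 to 7225 in Case and 4287 to 7149 in Dapa. FPKM is the count scaled to the length of the gene and the total of the library, and it served to compare 1 gene, or the sum over 1 list of genes, between mice. The lengths behind it exceed those of the mature transcripts for some genes, so levels were not compared between genes, and a sum weights its genes by those lengths.

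**Figure D1:**
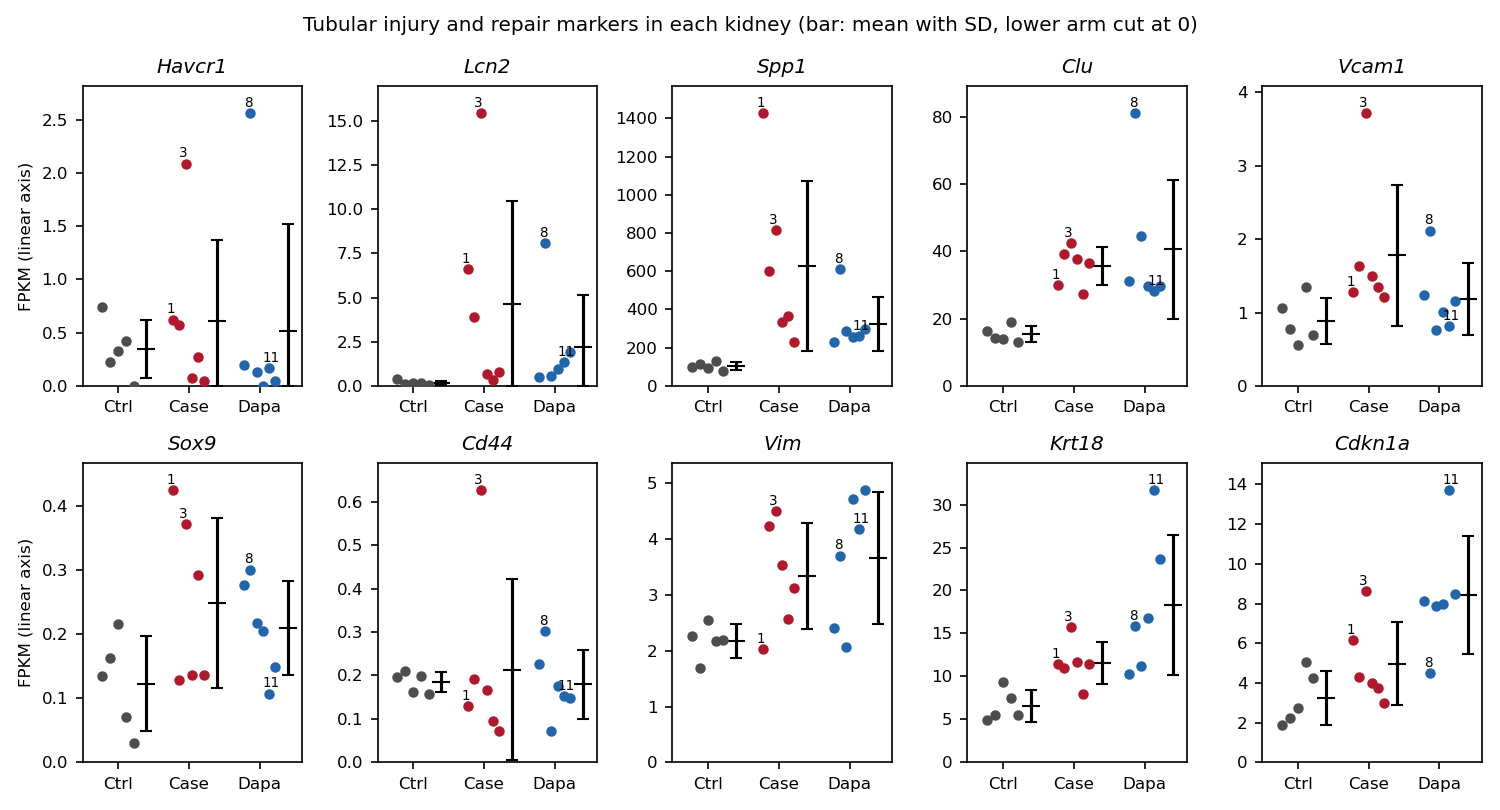
FPKM of the 10 markers (vertical axes, linear, 1 panel a gene) in the 5 Ctrl, 6 Case and 6 Dapa kidneys, with the group mean and SD as a bar whose lower arm ends at 0, and with Case mice 1 and 3 and Dapa mice 8 and 11 numbered. Every Case and Dapa kidney lies above every Ctrl kidney in Spp1 and Clu, whereas in Havcr1 a single kidney of each db/db group, at 2.09 in Case 3 and 2.56 in Dapa 8, stands far above the rest.

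Havcr1 (ENSMUSG00000040405, chr11:46735080-46779578 in mm10) encodes kidney injury molecule 1, a phagocytic receptor that is close to silent in healthy tubules. Its FPKM in Ctrl mice 1 to 5 was 0.740, 0.227, 0.324, 0.423 and 0. In Case mice 1 to 6 it was 0.623, 0.570, 2.09, 0.0720, 0.272 and 0.0483, and in Dapa mice 7 to 12 it was 0.192, 2.56, 0.129, 0, 0.169 and 0.0439. The groups overlapped, and apart from Case 3 and Dapa 8 every db/db kidney lay below the highest Ctrl kidney. The counts behind these values were low, from 0 to 144, and a count of 0 in Ctrl 5 and Dapa 10 allows a level of up to 0.190 and 0.212 CPM (counts scaled to the library total, taking 3 counts as the limit, counting error only). The log2 fold change was 0.70 ± 0.87 (SE, q = 0.642) in Case against Ctrl and 0.48 ± 1.05 (q = 0.764) in Dapa against Ctrl. Its sign rested on 1 mouse in each comparison, being -0.23 without Case 3 and -1.77 without Dapa 8. In the 7 libraries alone, which hold neither of those mice, Havcr1 was lower in Dapa than in Ctrl (log2 fold change -2.92, q = 0.0391), a subset chosen after the data were seen. Havcr1 shares 106 of its 2306 stretches of 50 bases with its neighbours Timd2 and Gm4926, of which the more abundant reached 2519 counts, so reads from those stretches could be assigned to either gene.

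Lcn2 (ENSMUSG00000026822, chr2:32384633-32388252) encodes NGAL, an iron-siderophore binding protein that injured tubules and neutrophils release. In Ctrl mice 1 to 5 its FPKM was 0.367, 0.1002, 0.159, 0.182 and 0.0521. In Case mice 1 to 6 it was 6.61, 3.90, 15.4, 0.672, 0.352 and 0.763, and in Dapa mice 7 to 12 it was 0.511, 8.07, 0.580, 0.943, 1.33 and 1.91. All but 1 Case kidney and all Dapa kidneys lay above the highest Ctrl kidney, and Case kidneys 4, 5 and 6 lay well below Case kidneys 1, 2 and 3. The mean of Case was 26.8-fold that of Ctrl (log2 fold change 4.60 ± 1.00, q = 0.0123) and the mean of Dapa 12.9-fold (3.56 ± 0.79, q = 0.00584). Without Case 3 the log2 fold change in Case was 3.72 (q = 0.0155), and without Dapa 8 that in Dapa was 2.48 (q = 0.00449). The call in Case was lost with limma on log2(FPKM + 1), at q = 0.0739, and with voom's sample weights, at q = 0.0768.

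Spp1 (ENSMUSG00000029304, chr5:104435118-104441050) encodes osteopontin, a secreted phosphoprotein that recruits leukocytes and binds integrins and CD44. In Ctrl its FPKM was 101, 113, 92.5, 131 and 76.7 in mice 1 to 5. In Case it was 1427, 604, 814, 334, 366 and 231 in mice 1 to 6, and in Dapa 231, 613, 289.6, 256, 261 and 296 in mice 7 to 12. Neither db/db group overlapped Ctrl, and Case 1, Case 3 and Dapa 8 were the 3 highest kidneys. The mean of Case was 6.11-fold that of Ctrl (log2 fold change 2.52 ± 0.41, q = 0.00248) and the mean of Dapa 3.15-fold (1.55 ± 0.24, q = 0.000935). Of the 1829 stretches of 50 bases in Spp1 transcripts, 11.6% also occur in Gm42793, an overlapping entry on the same strand that never exceeded 98 counts beside at least 6497 for Spp1.

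Clu (ENSMUSG00000022037, chr14:65968483-65981548) encodes clusterin, a secreted chaperone that binds misfolded proteins and cell debris. In Ctrl mice 1 to 5 its FPKM was 16.3, 14.1, 14.1, 19.1 and 13.2. In Case mice 1 to 6 it was 30.1, 39.2, 42.4, 37.9, 27.5 and 36.6, and in Dapa mice 7 to 12 it was 31.2, 81.1, 44.5, 29.7, 28.2 and 29.7. The lowest db/db kidney stood above the highest Ctrl kidney, and Dapa 8 stood far above all others. The log2 fold change was 1.13 ± 0.13 (q = 0.00033) in Case against Ctrl, with the smallest standard error of the 10 markers, and 1.30 ± 0.26 (q = 0.00357) in Dapa against Ctrl. Clu was the only marker that passed in Case against Ctrl within the 10 other libraries (2 Ctrl and 5 Case mice, log2 fold change 1.35, q = 0.0125).

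Lack of overlap was found for 2 markers in Case against Ctrl, Spp1 and Clu, where 4.97% of all genes had every Case kidney above every Ctrl kidney. It was found for 4 markers in Dapa against Ctrl, Lcn2, Spp1, Clu and Krt18, where the share of all genes was 9.79%. No marker had every db/db kidney below every Ctrl kidney, as 3.46% of all genes did in Case and 4.74% in Dapa. Between Dapa and Case all 10 markers overlapped, and 0.316% of all genes lay wholly higher and 0.165% wholly lower in Dapa.

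Vcam1 and Cd44 are surface molecules by which leukocytes, or matrix components such as hyaluronan and osteopontin, attach to cells. Vcam1 (ENSMUSG00000027962, chr3:116109949-116129688) is an endothelial adhesion molecule that proximal tubule cells also show when repair fails. Its FPKM ranged from 0.562 to 1.34 in Ctrl, from 1.22 to 3.72 in Case and from 0.764 to 2.12 in Dapa, with Case 3 and Dapa 8 at the top of their groups. The groups overlapped, and 4 of the 6 Case kidneys lay above every Ctrl kidney. The log2 fold change in Case against Ctrl was 0.91 ± 0.30, with an unadjusted p of 0.00944 and a q of 0.0621, just outside the threshold. DESeq2 (q = 0.0188), edgeR's exact test (q = 0.0274) and voom with sample weights (q = 0.0346) placed it inside. With 1 mouse left out the log2 fold change ranged from 0.58 (without Case 3) to 1.08 (without Ctrl 4). Dapa differed from Ctrl by 0.31 ± 0.28 (q = 0.429).

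Cd44 (ENSMUSG00000005087, chr2:102811141-102901665) was at a low level throughout, with 14 to 128 counts in a library. Its FPKM ranged from 0.157 to 0.209 in Ctrl, from 0.0719 to 0.627 in Case and from 0.0718 to 0.303 in Dapa. Case 3 alone lay above every Ctrl kidney among the Case mice, and 3 Case kidneys lay below every Ctrl kidney. The log2 fold change in Case against Ctrl was 0.10 ± 0.46 (q = 0.917) and became -0.58 (q = 0.184) without Case 3, and Dapa differed from Ctrl by -0.15 ± 0.30 (q = 0.733).

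Sox9, Vim and Krt18 mark the tubule cell that has left its mature state. Sox9 (ENSMUSG00000000567, chr11:112782224-112787760), a transcription factor of regenerating tubule cells, was counted 2 to 25 times in a library, which limits what could be seen. Its FPKM was 0.0307 to 0.216 in Ctrl, 0.128 to 0.425 in Case and 0.107 to 0.300 in Dapa. The groups overlapped, with 3 of 6 kidneys of either db/db group above every Ctrl kidney. The log2 fold change of 0.90 ± 0.49 in Case (q = 0.247) and 0.65 ± 0.44 in Dapa (q = 0.29) did not pass the test.

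Vim (ENSMUSG00000026728, chr2:13573927-13582826) encodes vimentin, the intermediate filament of mesenchymal cells, which mature tubule cells lack. Its FPKM in Ctrl mice 1 to 5 was 2.26, 1.69, 2.55, 2.17 and 2.19. In Case mice 1 to 6 it was 2.03, 4.23, 4.50, 3.54, 2.57 and 3.12, and in Dapa mice 7 to 12 it was 2.40, 3.70, 2.07, 4.71, 4.18 and 4.88. Above every Ctrl kidney lay 5 of the 6 Case kidneys and 4 of the 6 Dapa kidneys. Vim differed from Ctrl by 0.53 ± 0.18 on the log2 scale in Case (q = 0.0742) and by 0.64 ± 0.21 in Dapa (q = 0.0364). In Case DESeq2 (q = 0.0416) and leaving out Case 1 (q = 0.0237) placed Vim inside the threshold. The call in Dapa was lost when any one of Ctrl 1, 2, 4 or 5 or Dapa 8, 10, 11 or 12 was left out, with q from 0.0538 to 0.0807.

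Krt18 (ENSMUSG00000023043, chr15:102028216-102032026) encodes keratin 18, a filament of simple epithelia that is prominent in the collecting duct and the urothelium and increases in injured proximal tubules. Its FPKM in Ctrl mice 1 to 5 was 4.97, 5.53, 9.32, 7.48 and 5.48. In Case mice 1 to 6 it was 11.4, 11.0, 15.8, 11.6, 7.97 and 11.5, and in Dapa mice 7 to 12 it was 10.3, 15.9, 11.2, 16.7, 31.7 and 23.7. Only Case 5 reached down into the range of Ctrl, and the 3 highest kidneys of all were Dapa 11, 12 and 10. Krt18 differed from Ctrl by 0.73 ± 0.19 on the log2 scale in Case (q = 0.0229) and by 1.36 ± 0.28 in Dapa (q = 0.00365). The call in Case was lost without Ctrl 1, 2 or 5 (q = 0.0587, 0.0604 and 0.0652) and when all 3 groups were fitted together (q = 0.0637). Dapa 10, 11 and 12 belong to the 7 libraries set apart above. They also carried 10.1 to 36.4 of summed FPKM over 7 urothelium markers, a list that reached 27.9 in Ctrl 3, 13.1 in Case 6, 12.7 in Dapa 7 and 10.7 in Case 3 and was 0.212 in Ctrl 5. Dapa 11, the highest of that list at 36.4, Ctrl 3 and Case 3 had the highest Krt18 of their groups. Dapa 7 had the lowest Krt18 of its group, and Case 6 lay within the range of the other Case kidneys. The part of such cells in the Krt18 level was not tested.

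Cdkn1a (ENSMUSG00000023067, chr17:29090979-29100722) encodes the cyclin-dependent kinase inhibitor p21. Its FPKM in Ctrl mice 1 to 5 was 1.90, 2.26, 2.73, 5.04 and 4.25. In Case mice 1 to 6 it was 6.17, 4.28, 8.64, 3.99, 3.76 and 2.98, and in Dapa mice 7 to 12 it was 8.14, 4.49, 7.87, 8.00, 13.7 and 8.46. Most Case kidneys lay within the range of Ctrl, and 5 of 6 Dapa kidneys lay above it. The log2 fold change was 0.53 ± 0.28 in Case against Ctrl (q = 0.236) and 1.28 ± 0.28 in Dapa against Ctrl (q = 0.00504). About 8.49% of the 3547 stretches of 50 bases in Cdkn1a also occur in transcripts of 584 other genes, 1 of which reached 33274 counts beside at most 572 for Cdkn1a, so reads from those stretches could be assigned to either.

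The DNA just upstream of the called markers is shown because each of these genes passed as higher than in Ctrl in at least 1 db/db group. The windows cover 250 bases up to the annotated start site, written 5′ to 3′ on the gene's own strand, from the RefSeq promoter table (GRCm38.p6), which had 7 of the 10 markers and 5 of the 6 that were called. Capitals mark a match on either strand to one of 6 motifs: TATAAA (the TATA box), GGGCGG (the GC box), TGANTCA (the AP-1 site), TTCNNNGAA (the STAT site), the NF-kappaB consensus or the p53 decamer. The windows are, in order, chr2:32387740-32387989 (Lcn2, minus strand), chr5:104434861-104435110 (Spp1, the first of 2 start sites, plus), chr2:13574061-13574310 (Vim, plus), chr15:102027966-102028215 (Krt18, plus), and chr17:29090729-29090978 and chr17:29093519-29093768 (Cdkn1a, both start sites, plus).
Lcn2: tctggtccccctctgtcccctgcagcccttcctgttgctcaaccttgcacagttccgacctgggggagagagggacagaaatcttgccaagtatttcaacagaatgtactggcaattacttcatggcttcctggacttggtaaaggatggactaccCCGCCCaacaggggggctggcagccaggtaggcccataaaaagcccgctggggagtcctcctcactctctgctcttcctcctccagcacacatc
Spp1: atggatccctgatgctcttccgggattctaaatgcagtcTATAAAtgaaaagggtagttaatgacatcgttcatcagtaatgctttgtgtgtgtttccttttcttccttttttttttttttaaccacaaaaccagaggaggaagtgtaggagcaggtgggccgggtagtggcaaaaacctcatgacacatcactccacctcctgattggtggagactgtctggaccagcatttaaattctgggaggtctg
Vim: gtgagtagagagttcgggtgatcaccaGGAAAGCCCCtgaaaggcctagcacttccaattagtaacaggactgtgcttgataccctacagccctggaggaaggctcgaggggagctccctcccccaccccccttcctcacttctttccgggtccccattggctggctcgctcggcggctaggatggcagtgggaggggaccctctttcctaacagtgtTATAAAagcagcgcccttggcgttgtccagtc
Krt18: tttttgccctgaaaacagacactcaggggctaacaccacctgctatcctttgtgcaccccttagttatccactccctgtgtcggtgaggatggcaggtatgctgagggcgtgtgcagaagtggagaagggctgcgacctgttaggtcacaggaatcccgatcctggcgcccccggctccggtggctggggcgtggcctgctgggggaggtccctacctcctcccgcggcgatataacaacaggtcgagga
Cdkn1a, first start site: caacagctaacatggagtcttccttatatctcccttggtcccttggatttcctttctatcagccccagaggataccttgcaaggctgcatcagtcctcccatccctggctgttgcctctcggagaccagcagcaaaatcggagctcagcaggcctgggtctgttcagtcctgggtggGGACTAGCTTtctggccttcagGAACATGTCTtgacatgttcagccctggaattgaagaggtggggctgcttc
Cdkn1a, second start site: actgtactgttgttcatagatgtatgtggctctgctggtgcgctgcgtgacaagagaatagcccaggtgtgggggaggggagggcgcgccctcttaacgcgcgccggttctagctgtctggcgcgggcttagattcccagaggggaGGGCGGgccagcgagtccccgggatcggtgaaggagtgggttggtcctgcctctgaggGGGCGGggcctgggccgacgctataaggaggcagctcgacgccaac

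The Lcn2 window held GGGCGG as its reverse complement, from base -94 to -89. In Vim TATAAA lay at -32 to -27 and a match to the NF-kappaB consensus at -223 to -214, and in Spp1 TATAAA lay at -211 to -206. The first Cdkn1a window held 2 p53 decamers, from -73 to -64 and from -51 to -42, and the second held GGGCGG 2 times. No motif matched in the Krt18 window, and neither TGANTCA nor TTCNNNGAA matched in any of the printed windows. Over all 32851 windows of this length, TATAAA was found in 12.4%, GGGCGG in 32.7%, TGANTCA in 6.75%, TTCNNNGAA in 7.02%, the NF-kappaB consensus in 3.9% and the p53 decamer in 7.13%. A match is a description of letters, and the counts do not tell which start site was used.

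Dapa was compared with Case to ask whether the drug changed the markers in diabetic kidneys. Of the 10 markers, 6 had a lower and 4 a higher fitted level in Dapa, and q was at least 0.269 for all of them. Mean Lcn2 in Dapa was 0.481 times and mean Spp1 0.516 times that of Case, and mean Cdkn1a was 1.70 times and mean Krt18 1.58 times that of Case. The log2 fold changes were -1.04 ± 0.87 for Lcn2 (q = 0.633), -0.97 ± 0.39 for Spp1 (q = 0.334), 0.75 ± 0.26 for Cdkn1a (q = 0.269) and 0.63 ± 0.24 for Krt18 (q = 0.305). Unadjusted p was under 0.05 for Spp1, Cdkn1a and Krt18, beside 12.9% of all genes, while DESeq2 passed 202 genes (1.39%) and none of the markers. Every Dapa value of Lcn2 and of Spp1 lay within the range of Case. Leaving out Case 1, which stood at 1427 in Spp1, brought the log2 fold change of Spp1 to -0.53 and leaving out Dapa 8 to -1.24, and that of Lcn2 was -0.17 without Case 3 and -2.12 without Dapa 8.

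For the other markers the log2 fold change in Dapa against Case was -0.21 ± 1.03 for Havcr1, -0.59 ± 0.29 for Vcam1, -0.24 ± 0.38 for Sox9, -0.24 ± 0.47 for Cd44, 0.11 ± 0.23 for Vim and 0.18 ± 0.24 for Clu. Their q lay between 0.401 and 0.948. Without Dapa 8 the value of Havcr1 became -2.46, and without Case 3 it became 0.70. In Clu the value changed from 0.18 to -0.13 without Dapa 8, and in Cd44 from -0.24 to 0.43 without Case 3. Havcr1, Sox9 and Vim changed sign in the 10 other libraries. Within the 10 other libraries, which drop Dapa 10, 11 and 12 and Case 1, the difference was 0.10 for Krt18 (q = 0.981), 0.55 for Cdkn1a (q = 0.917) and -0.30 for Spp1 (q = 0.968).

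**Figure D2:**
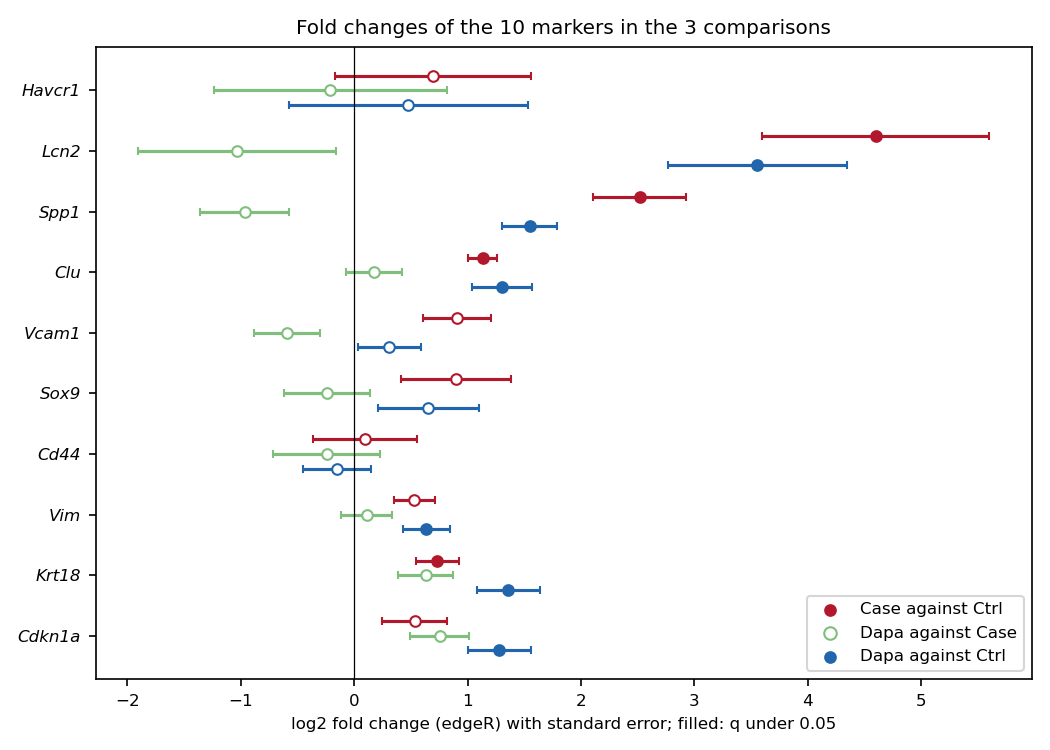
Fitted log2 fold change (horizontal axis) of each marker (vertical axis) in each of the 3 comparisons, with its standard error as a bar and filled points where q was under 0.05. Filled points occur only in the comparisons with Ctrl, 4 in Case and 6 in Dapa, and Lcn2 has the largest values, 4.60 and 3.56.

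Single kidneys stood high for many of these markers. Case 3 was among the 3 highest of the 17 kidneys for 9 of the 10 markers, beside 30.8% of the 14321 genes tested in all comparisons, and Dapa 8 for 7 of 10, beside 22.5%. Case 3 was also the highest kidney in the summed FPKM of the macrophage, neutrophil, T cell, interferon-gamma and distal nephron lists. Case 3 was the highest of all in Lcn2, Vcam1 and Cd44, Dapa 8 in Havcr1 and Clu, Case 1 in Spp1 and Sox9, Dapa 11 in Krt18 and Cdkn1a, and Dapa 12 in Vim. The coefficient of variation of Havcr1 was 195% in Dapa and 124% in Case, and that of Lcn2 was 131% and 126%. The coefficient of variation of Clu was 15.5% in Ctrl, 16% in Case and 50.8% in Dapa. No Ctrl kidney was the highest for any marker.

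**Figure D3:**
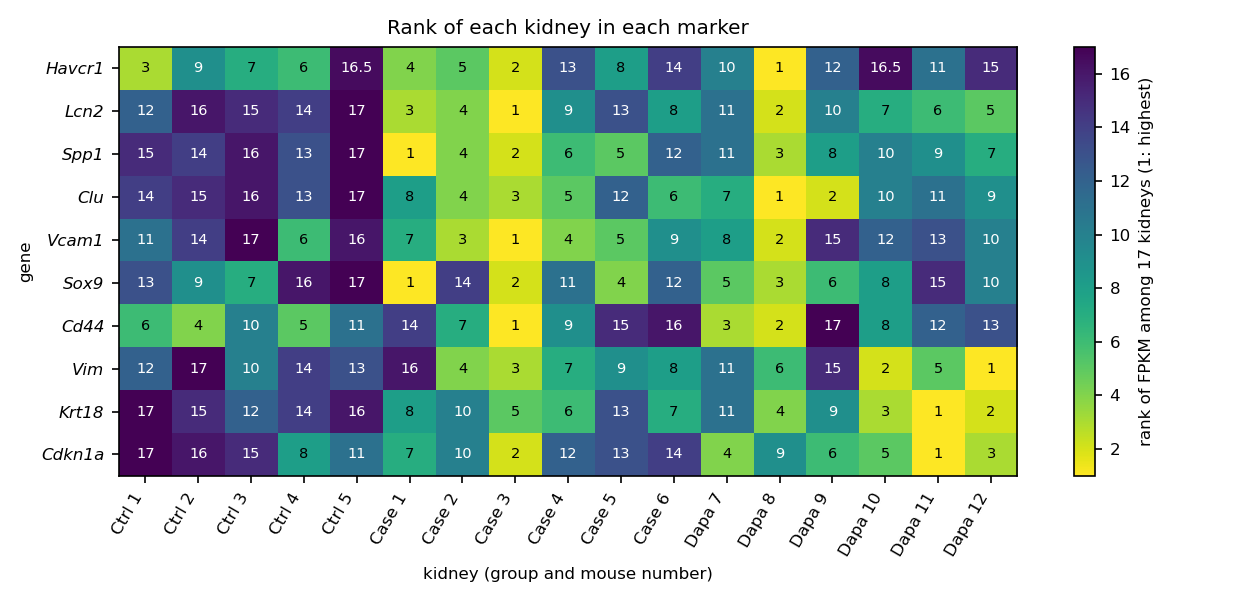
Rank of the FPKM of each kidney (horizontal axis) among the 17 for each marker (vertical axis, rank 1 the highest, ties sharing a mean rank). The column of Case 3 holds ranks within the top 3 for 9 markers and that of Dapa 8 for 7, while Dapa 10, 11 and 12 hold ranks 1 to 3 in Krt18.

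Immune and interferon genes moved with some of these kidneys. The summed FPKM of 11 macrophage markers was 210 in Case 3 and 66.1 in Dapa 8, the 2 highest values, and 26.8 to 57.6 in all other kidneys. Of the 11 macrophage markers, 11 were tested in Case against Ctrl and 10 in either comparison with Dapa, and none passed. The summed FPKM of 8 neutrophil markers was 17.9 in Case 3, 14.8 in Case 1 and 9.01 in Dapa 8, and 0.125 to 2.97 in the other kidneys. Mean FPKM in Ctrl and Case was 0.536 and 3.64 for S100a9 and 0.0489 and 1.24 for S100a8. For Retnlg it was 0.201 and 1.26, and for Csf3r 0.182 and 0.345. Mmp8 and Ngp had no count in Ctrl and means of 0.237 and 0.0795 in Case. The neutrophil gene Mpo had no count in Ctrl and Case, and Ly6g none in Ctrl and Dapa. The summed FPKM of 14 interferon-gamma response genes was 631 in Case 3, 372 in Case 5, 337 in Case 1 and 56.3 in Case 2, and 18.4 to 34.5 in all other kidneys, Dapa 8 included. Of those genes, 12 of 13 tested were higher in Case than in Ctrl (median log2 fold change 2.65) and 1 was higher in Dapa than in Ctrl (median 0.13). None of 12 tested passed in Dapa against Case, where the median was -2.55 and 11 of the 12 had an unadjusted p under 0.05 with a lower level in Dapa. The part of leukocytes or of interferon in the marker levels was not tested.

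**Figure D4:**
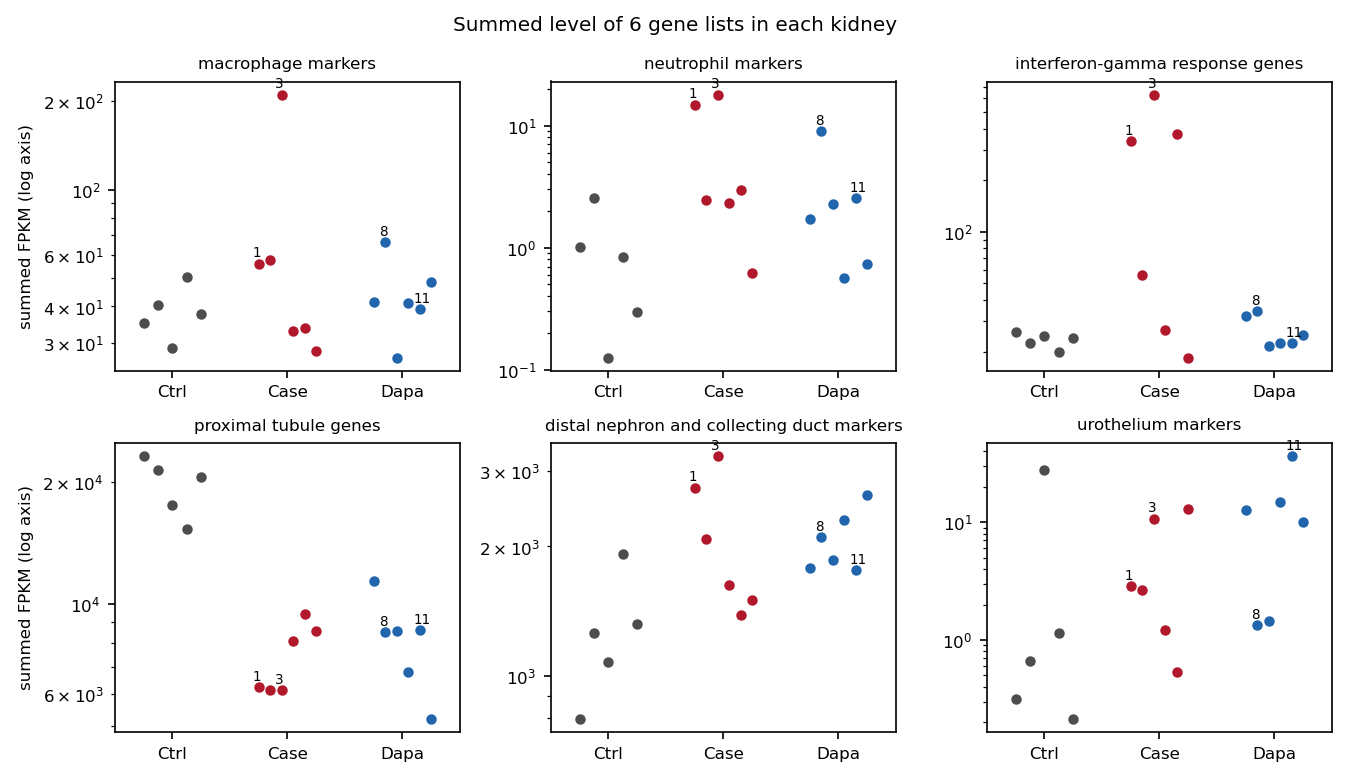
Summed FPKM (vertical axes, log scale) of 6 gene lists in each kidney by group, with Case mice 1 and 3 and Dapa mice 8 and 11 numbered. Case 3 and Dapa 8 hold the highest macrophage sums, 210 and 66.1, whereas the interferon-gamma sum of Dapa 8, 34.5, lies far below that of Case 3, 631.

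Further genes of the same processes were counted from lists. Of 34 injured tubule genes, 29 were tested in Case against Ctrl, 10 were higher, 1 was lower, and the median log2 fold change was 0.49. Hbegf, a growth factor of the EGF family, was the one that fell (log2 fold change -0.90, q = 0.00455), while the neutrophil chemokine Cxcl1 (2.84, q = 0.00688) and the annexin Anxa3 (0.86, q = 0.00725) rose. In Dapa against Ctrl 11 of 28 were higher and 1 lower (median 0.50), with Lgals3, which encodes galectin-3 (1.01, q = 0.000667), complement C3 (2.03, q = 0.000858) and the keratin Krt7 (1.08, q = 0.0016) having the smallest p. In Dapa against Case none of 29 passed, and the median was 0.09.

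Of the 18 dedifferentiation and mesenchymal genes tested, 1 was higher in Case than in Ctrl, the intermediate filament gene Nes (log2 fold change 0.74, q = 0.00106), and the median was 0.13. Dapa kidneys had 5 of these genes higher than Ctrl and 1 lower (median 0.23). The nephron lineage genes Pax8 (0.56, q = 0.00518) and Pax2 (0.92, q = 0.00547) rose and Lhx1 fell (-0.30, q = 0.0292). None passed in Dapa against Case (median 0.00).

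Of 28 cell cycle arrest genes, 7 were higher and 1 was lower in Case than in Ctrl (median log2 fold change 0.46). The antiproliferative gene Btg2 (0.98, q = 0.000762) and the stress sensor Gadd45b (1.19, q = 0.0012) rose, and Glb1, which encodes the lysosomal beta-galactosidase used as a senescence stain, fell (-1.12, q = 0.000221). Against Ctrl, 10 were higher and 2 lower in Dapa (median 0.33), with Glb1 (-1.06, q = 0.000107), Btg2 (1.21, q = 0.00205) and the kinase inhibitor gene Cdkn1c (0.66, q = 0.00252) first by p. Of the proliferation genes, 1 was higher and 1 lower in Case among 17 tested (median -0.22), namely the replication factor Mcm5 (0.92, q = 0.0496) and the cyclin Ccna2 (-1.25, q = 0.046). Among 16 tested in Dapa against Ctrl, 2 were higher and 4 lower (median -0.17), led by Mcm5 (1.03, q = 0.00359), Mki67 (-0.76, q = 0.0171) and Mcm2 (0.43, q = 0.0194). No gene of either list passed in Dapa against Case, where the medians were -0.02 and 0.09.

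Among 15 binding partners of the markers tested in Case against Ctrl, 1 was higher and 2 were lower (median log2 fold change 0.09). The 2 that fell are receptors for NGAL: Lrp2, which encodes megalin (-0.98, q = 0.00407), and Slc22a17 (-0.87, q = 0.00464). Ccnd1, a cyclin whose kinase p21 binds, rose (0.77, q = 0.0078). The same 3 genes had the smallest p in Dapa against Ctrl, where 2 were higher and 4 lower (median 0.07), at -1.08 for Slc22a17 (q = 0.000269), -1.25 for Lrp2 (q = 0.000557) and 0.63 for Ccnd1 (q = 0.00238). None of 14 passed in Dapa against Case (median -0.04).

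Genes of the mature proximal tubule lay on the other side. Of 26 tested, 12 were lower and none higher in Case than in Ctrl (median log2 fold change -0.53). In Dapa 16 were lower and none higher than in Ctrl (median -0.63). For scale, 13% of all genes passed in either direction in Case and 29.1% in Dapa against Ctrl. None of 26 passed in Dapa against Case (median 0.07). The amino acid transporter gene Slc7a13 fell by 3.24, the androgen-regulated Kap by 2.95 and Ggt1 by 1.06 on the log2 scale in Case (q = 0.0011, 0.0011 and 0.00119). In Dapa against Ctrl, Lrp2 (-1.25, q = 0.000557), Acsm2 (-1.63, q = 0.000583) and Kap (-2.53, q = 0.000689) had the smallest p. Of 15 distal nephron and collecting duct markers, 5 were higher in Case (median 0.30) and 9 in Dapa (median 0.55) than in Ctrl, and none was lower. The calcium binding protein gene Calb1 led in both, at 1.55 (q = 0.00347) and 1.62 (q = 0.000205), followed by Slc4a1 (0.79, q = 0.00601) and Scnn1b (0.39, q = 0.023) in Case and by Scnn1b (0.68, q = 0.000688) and Scnn1g (0.55, q = 0.00324) in Dapa. No gene of that list passed in Dapa against Case (median 0.20). The summed FPKM of the distal list was 795 to 1923 in Ctrl, 1388 to 3239 in Case and 1762 to 2632 in Dapa, and its part in the levels of Spp1, Clu and Krt18 was not tested.

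Markers of other cell types are read against the 6.09% of all genes that passed as higher in Case and the 14.2% in Dapa. In Case against Ctrl 2 of 7 podocyte genes (Nphs1, log2 fold change 0.59, and Podxl, 0.40), 1 of 9 endothelial genes (Egfl7, 0.47) and 1 of 2 adrenal genes (Hsd3b1, 1.72) were higher. In Dapa these included the podocyte genes Nphs1 (0.67) and Podxl (0.46), 1 endothelial gene (Egfl7 0.51), 3 of 10 fibroblast and pericyte genes (Pdgfra 1.07, Gata3 0.71 and Dcn 0.69) and 1 adrenal gene (Hsd3b1 4.42). None of these lists had a gene that was lower. No urothelium, neutrophil, T cell, adipocyte or liver marker passed in any comparison, but many were too low to be tested. In Case against Ctrl 3 of 7 urothelium, 2 of 10 neutrophil, 1 of 9 T cell, 1 of 6 adipocyte and 6 of 7 liver markers were tested. The interferon-gamma list was led in Case by Cxcl10 (1.76, q = 0.00615), Tap1 (2.57, q = 0.0179) and Psmb8 (3.10, q = 0.0205), and Cxcl10 was its 1 called gene in Dapa against Ctrl (1.94, q = 0.000583).

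Likeness to the markers was described by Pearson's r of log2(FPKM + 1) over the 17 kidneys, among genes with a mean FPKM of at least 1. The values share group differences and library depth, and no test was made. The genes most like Spp1 were Oat (r = 0.96), C3 (0.95) and Tifa (0.95), and those most like Lcn2 were Tifa (0.88), H2-Q2 (0.88) and Socs3 (0.87). Havcr1 was most like the myeloid genes Mpeg1 (0.81) and Ctss (0.80) and Snd1 (0.80), and Vcam1 most like C7 (0.91), Fcgr3 (0.90) and Coro1a (0.89). Cd44 was most like Zufsp (0.91), C1qc (0.91) and Nckap1l (0.90). After the group means were removed, r was 0.94 for Cd44 with C1qc and with Nckap1l and 0.81 for Havcr1 with Mpeg1. Without Case 3 and Dapa 8, which were left out after the data were seen, those values were 0.66, 0.52 and 0.35 over 15 mice. They thus rested in part on these 2 kidneys. For Vcam1 the same step changed r from 0.86 to 0.46 with C7, from 0.89 to 0.63 with Fcgr3 and from 0.87 to 0.63 with Coro1a. Among the genes most like Krt18 were the epithelial gene Cldn4 (0.96) and Mettl9 (0.95). The genes nearest to Clu were Gm13652 (0.92), Cdc42se2 (0.90) and Ugt1a1 (0.90), to Sox9 Nod1 (0.84), Plgrkt (0.82) and Ubd (0.80), to Vim Lypd6b (0.91), Tesc (0.91) and Gnb1 (0.90), and to Cdkn1a Gon4l (0.94), Nsmaf (0.91) and Wbp1l (0.90).

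The markers were set against serum creatinine, a waste product that the kidney clears, in the 6 Case mice. The study's clinical table numbers its mice by group, and those numbers were taken to be the library numbers, which no label states. No member reached an unadjusted p of 0.05 by an exact two-sided permutation test of Pearson's r, beside 2.92% of the 14582 genes, and every adjusted value rounded to 1. Vim had r = -0.77 (exact permutation p = 0.0667) and Spearman's rho = -0.89 (exact permutation p = 0.0333). For Vcam1 r was -0.40 (exact permutation p = 0.408) and rho -0.89 (exact permutation p = 0.0333). The r of Lcn2 was -0.23, of Spp1 -0.05, of Clu -0.53, of Havcr1 -0.32, of Cd44 -0.39, of Krt18 -0.13 and of Cdkn1a -0.13, and that of Sox9 was 0.38, with exact permutation p from 0.286 to 0.926 and rho from -0.77 to 0.49 (exact permutation p from 0.103 to 1). Without the 2 mice farthest from the median creatinine all 10 values of r were negative, from -0.87 for Spp1 to -0.35 for Clu, over 4 mice. Sox9 thus changed sign, and r of Spp1 rested on those 2 mice. Within a group of 6 mice the smallest p the test can give is 0.00139, and 10 relations were computed here.

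**Figure D5:**
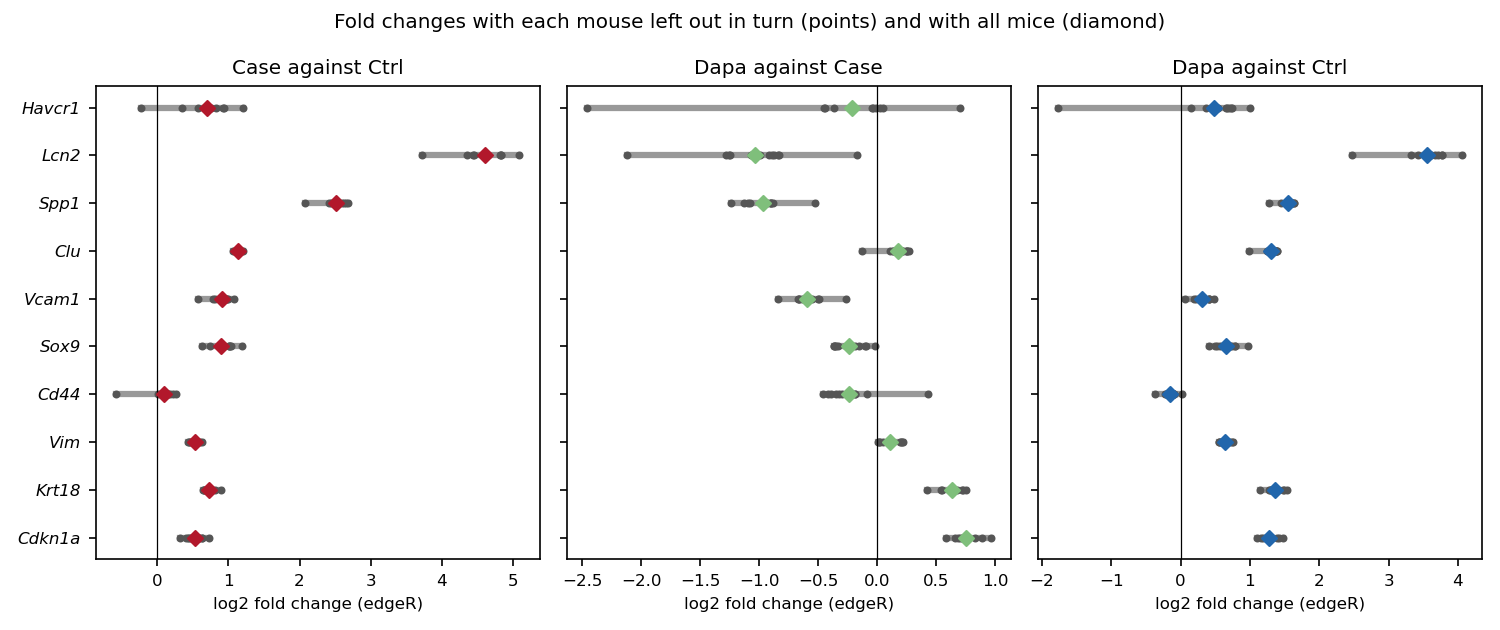
Log2 fold change (horizontal axes, edgeR) of each marker (vertical axis) in the 3 comparisons with all mice (diamond) and with each mouse left out in turn (points, joined by a line). Clu in Case against Ctrl moves between 1.06 and 1.20, whereas Havcr1 crosses 0 in all 3 comparisons.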

How the data were processed

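Whole-kidney RNA of 17 mice was sequenced, 1 library per mouse, from poly(A)-selected strand-specific libraries. HISAT2 alignment to mm10 and counting with Stringtie, as the study's methods state, gave the deposited read counts per gene. Beside each count stands an FPKM computed by the authors, which equals the count over gene length and library total (largest deviation 0.0266%), without a TMM factor. Of the 22561 genes, 3 with entries broken over 2 lines were left out.

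Each comparison used its own 2 groups. Genes with low counts were removed by filterByExpr, libraries were scaled by TMM, and the quasi-likelihood test of edgeR 4.0.16 (R 4.3.3) was adjusted by Benjamini-Hochberg over every gene tested. Libraries of a group were no duplicates of each other (lowest chi-square per gene 15.05). Nothing states that the mice came from separate litters or runs. The fits were tested on simulated data.

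Correlations used exact permutation tests over all 720 orders in Python 3.11.15 with numpy 2.4.6 and scipy 1.17.1, on log2(FPKM + 1). Alternatives were DESeq2 1.42.0, limma 3.58.1 on log2(FPKM + 1) and log2(FPKM + 0.1), voom with sample weights, edgeR's exact test, other scalings, filters and library subsets, a replicate block, and leaving each mouse out. The subsets of libraries were chosen after the data were seen.

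The members, the gene lists and the tests were chosen with earlier results of these data known. All 10 members are described, with the value in every mouse where a member was called. From each other list the text gives counts and up to 3 called genes with the smallest p in a comparison. Havcr1 is also given in every mouse, which was decided after its values were seen. Same-numbered Ctrl and Case mice did not deviate together (r from -0.0566 to -0.0144), so the numbers pair no mice. The clinical table's Dapa mice could not be matched to the libraries and were not used here. Figures were drawn with matplotlib 3.10.9. Some genes of the lists and of the most alike genes are not reported here.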

Additional observations from a re-analysis of the deposited data

Results flagged for a closer look

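In 8 of 30 sets of values (10 markers in 3 groups), 1 kidney stood apart from the rest of its group by Dixon's test at the 95% level, always as the highest of its group. Chance flags about 1 in 20 such sets, and over the 14321 genes tested in all comparisons 6.66% of the sets had such a kidney at either end and 4.67% as the highest. In Dapa 8 these were Havcr1 (FPKM 2.56, next highest 0.192), Lcn2 (8.07, next 1.91), Spp1 (613, next 296), Clu (81.1, next 44.5) and Vcam1 (2.12, next 1.23). In Case 3 they were Havcr1 (2.09, next 0.623), Vcam1 (3.72, next 1.63) and Cd44 (0.627, next 0.191). The sets are not independent, because the same 2 mice give all 8 values.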

How the results depend on the processing

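The number of markers called was 4 in Case against Ctrl, 0 in Dapa against Case and 6 in Dapa against Ctrl, and within the 10 other libraries it was 1, 0 and 0, over 2 Ctrl, 5 Case and 3 Dapa mice. A term for the 7 libraries gave 4 in Case and 6 in Dapa against Ctrl. Within the 7 libraries alone (Ctrl 1, 3 and 4 against Dapa 10, 11 and 12) the log2 fold change was -2.92 for Havcr1 and -0.12 for Vcam1. In both comparisons with Ctrl the share of all genes that passed was computed for the main fits only. The counts from the other fits therefore cannot be read as particular to the markers. Leaving out each mouse in turn gave 3 to 5, 0 and 5 to 6 called markers. The replicate block gave 4 in Case against Ctrl, where same-numbered mice do not pair, and each mouse correlated best with another number than its own.

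The values that changed sign belonged to markers that were not called in the comparison. In Case against Ctrl, Cd44 was -0.045 with limma on log2(FPKM + 0.1), -0.038 with the replicate block, -0.046 with a term for the 7 libraries and -0.37 with voom weights. Leaving out each mouse gave -0.23 to 1.21 for Havcr1 and -0.58 to 0.27 for Cd44. In Dapa against Case, the 10 other libraries gave 0.68 for Havcr1, 0.32 for Sox9 and -0.40 for Vim, the term for the 7 libraries -0.020 for Vim, and voom weights 0.12 for Cd44. With Case 3 and Dapa 8 left out together Clu was -0.094 and Cd44 0.21, and Havcr1 did not pass the filter. Leaving out each mouse gave -2.46 to 0.70 for Havcr1 (0.05 without Dapa 10 and 0.02 without Dapa 12), -0.46 to 0.43 for Cd44 and -0.13 to 0.27 for Clu. In Dapa against Ctrl, Havcr1 was -0.28 with limma on log2(FPKM + 0.1), -0.28 with the term for the 7 libraries and -0.69 with voom weights, and Cd44 was 0.033 in the 10 other libraries. Leaving out each mouse gave -1.77 to 1.00 for Havcr1 and -0.36 to 0.018 for Cd44. The cause of these changes was not tested.

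Against creatinine, 0 markers reached an unadjusted exact permutation p of 0.05, and 2 did with Spearman's rho, 1 with deviations from the group means of Ctrl and Case together (Vim, r = -0.76) and 0 to 1 when a Case mouse was left out. With a mouse left out, r ranged from -0.75 to 0.30 for Spp1, from -0.34 to 0.031 for Krt18 and from -0.41 to 0.16 for Cdkn1a, and without the 2 farthest mice Sox9 was -0.63. Low counts limit Havcr1, Sox9 and Cd44.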
